A study of Mus musculus with 4 samples.

Results

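The expression of 10 genes of the Bmp pathway was followed in mouse embryonic stem (ES) cells with and without Prep1. They are the ligands Bmp2, Bmp4 and Bmp7, the type I receptor Bmpr1a, the target genes Id1, Id2 and Id3, and the inhibitors Smad6, Smad7 and Bambi. They were chosen by symbol, all were found, and they are 10 of the 22718 genes with values in both RNA-seq libraries. RNA-seq was done on 1 wild type ES cell line and 1 Prep1-/- line (KO2), both of strain C57BL/6 and grown with leukemia inhibitory factor (LIF), which holds ES cells in the pluripotent state. Prep1 is a homeodomain transcription factor of the TALE family, encoded by Pknox1. A ChIP-seq library of wild type ES cells, made with the Prep1 antibody N-15, gave 3902 peaks over input DNA, and the binding maps around the 10 genes come from it. The ChIP protocol names the R1 ES cell line, although the strain label of that library is also C57BL/6, so the binding map and the RNA may come from different wild type lines. Some cross-reaction of this antibody with the related protein Prep2 is known.

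Bmps are secreted growth factors that bind pairs of type I and type II serine/threonine kinase receptors. The active receptor phosphorylates Smad1, Smad5 or Smad9, which enter the nucleus with Smad4 and bind DNA at GC-rich elements and at GTCT, the Smad box. The Id genes are classical direct targets of these Smads, and in ES cells Bmp signalling and Id proteins, together with LIF, are known to hold back differentiation. Id proteins contain a helix-loop-helix but no DNA-binding region, and they keep E proteins and their partners from binding DNA. Smad6, Smad7 and Bambi are induced by the signal and dampen it.

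Each genotype had 1 library, so no difference below has a replicate check and no test was made. Levels are given as RPKM, reads corrected for transcript length and for the depth of the library. A KO/WT ratio sets the level in the library labelled Prep1-/- over the wild type level. Its 95% counting interval (exact Clopper-Pearson, from the read counts) covers counting error only, and since several reads can come from 1 molecule, the full error exceeds it. The ratio thresholds of 0.7 and 1.5 and the RPKM minimum of 1 are those of the study, and applying the minimum to 1 library for each direction was a choice made here. A gene counts as lower when its ratio is below 0.7 and its wild type level exceeds an RPKM of 1, and as higher when its ratio exceeds 1.5 and its RPKM in the other library exceeds 1. The deposited counts summed to 29596294 and 25717811 reads over genes. The methods of the study give far fewer reads per sample, and what a deposited read stands for (a pair, an end or a repeated assignment) is not given in the sources used here, so the counting intervals are wider than printed if the independent reads are fewer. The 10 genes took 0.071% of all reads in wild type and 0.0471% in the other library. Pknox1 itself had 505 reads in wild type and still had 332 in the library labelled Prep1-/-, which gave it a KO/WT ratio of 0.736 (0.638 to 0.846). Its transcript level therefore does not check the genotype label, and the deleted part of the gene is not given in the sources used here. At the protein level, the study reports by immunoblot that Prep1 was lost in both of its Prep1-/- lines, including the line named for RNA-seq.

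The sequences around the Id genes and Smad1 are given first, because Id1 had the lowest ratio of the 10 genes, Id2 was the only one of them with a Prep1 peak at its start, and Smad1 transduces the signal and had a peak at its start too. All are from the mm9 (NCBIM37) assembly. The first 2 lie before the starts of Id1 (chr2:152560827-152561006, plus strand) and Id2 (chr12:25781138-25781237, minus strand, within the Id2 start peak), with capitals for GGCGCC, the core of a Bmp-responsive GC element, and for GTCT on either strand, which reads AGAC when it is on the other one.
Id1 promoter: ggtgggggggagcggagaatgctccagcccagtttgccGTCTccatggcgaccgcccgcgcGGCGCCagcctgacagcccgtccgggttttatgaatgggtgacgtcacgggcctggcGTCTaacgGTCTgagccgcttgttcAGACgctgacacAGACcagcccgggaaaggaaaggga
Id2 promoter: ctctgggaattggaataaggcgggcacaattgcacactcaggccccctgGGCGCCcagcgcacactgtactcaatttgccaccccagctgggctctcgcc

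The next 3 are centred on, or hold, matches to the decamer bound by Prep1 and Pbx, which reads TGA, any base, then TGACAG, or to a looser form of it that reads TGA, any base, TG, any base, then CAG, with the match in capitals. They lie in the start peak of Id2 (chr12:25781788-25781937, plus strand), in the distal peak of Id2 (chr12:25827409-25827558, plus strand) and before the start of Smad1 (chr8:81923468-81923567, minus strand). The first and second hold the decamer and the third holds the looser form only.
Id2 start peak: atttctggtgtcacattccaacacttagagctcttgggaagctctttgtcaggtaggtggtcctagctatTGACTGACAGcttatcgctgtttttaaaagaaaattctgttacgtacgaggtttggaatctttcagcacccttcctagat
Id2 distal peak: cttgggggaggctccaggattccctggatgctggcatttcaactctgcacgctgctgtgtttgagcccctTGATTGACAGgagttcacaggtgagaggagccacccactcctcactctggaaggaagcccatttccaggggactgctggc
Smad1 start: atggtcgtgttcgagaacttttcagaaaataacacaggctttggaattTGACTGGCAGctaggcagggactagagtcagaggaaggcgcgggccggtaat

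Among the 10 genes, the Id targets and the ligands had lower levels in the library labelled Prep1-/-, and the receptor and the inhibitors had ratios between 0.905 and 0.97. Id1, Bmp7, Bmp2 and Id2 were past the threshold for lower, which makes 4 of 10, against 13.8% of the 13795 genes with a wild type RPKM above 1. None of the 10 was past the threshold for higher, against 7.2% of genes. At the deposited scaling the counting interval lay wholly below 1 for 7 of the 10 genes, against 36.8% of the 13218 expressed genes. Expressed genes are those past an RPKM of 1 in both libraries, which leaves out Bmp2, at 0.778 in the library labelled Prep1-/-. Among genes with 20 or more reads in the libraries together, a set that holds all 10, the share was 36%. The remaining 3 of the 10, all inhibitors, had intervals that spanned 1. No interval lay wholly above 1, against 20.8% of the expressed genes and 20.6% of those with 20 or more reads. The median log2 KO/WT ratio was -0.38 over the 10 genes, a ratio of 0.771, beside -0.07 over the 13218 genes. All 10 ratios were below 1, beside 58.8% of the 13218 genes. However, Bambi reached 1.01 to 1.02 and Smad7 reached 1 under other scalings of the libraries. Whether fewer cells of a kind held these transcripts, or each cell held less, cannot be told apart in bulk RNA.

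**Figure D1:**
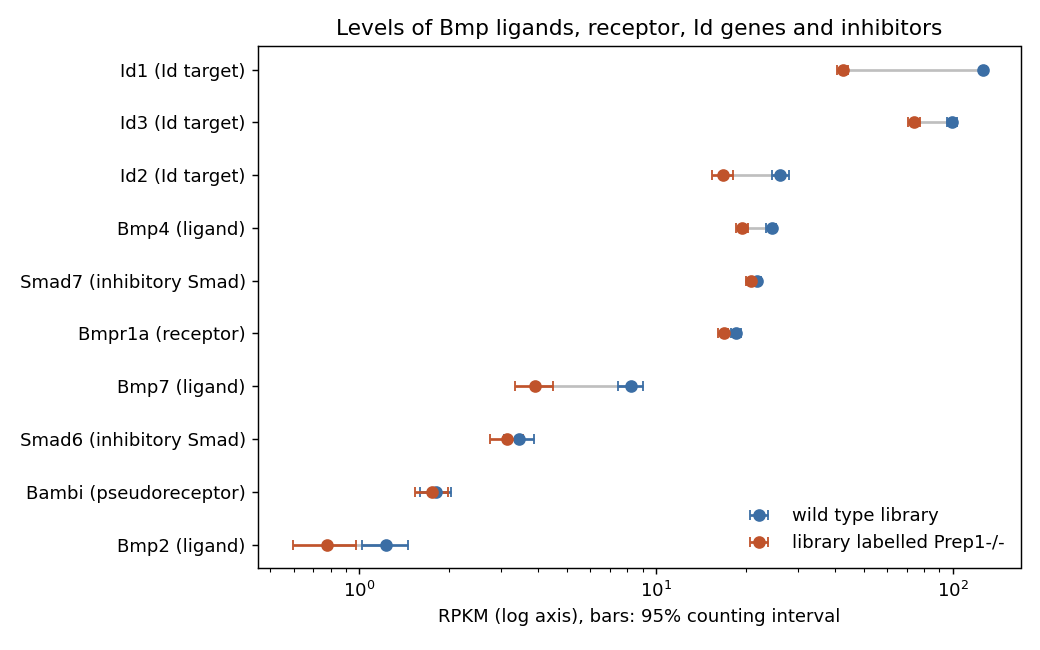
RPKM of the 10 genes (log axis) in the wild type library and the library labelled Prep1-/-, ordered by wild type level, with bars for the 95% counting interval. Id1 went from 126 to 42.5 and lost its first place to Id3 at 73.8, while the 2 points of Smad7, Smad6, Bambi and Bmpr1a lie close together.

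Among the ligands, Bmp4, which maintains ES cell self-renewal with LIF and later patterns mesoderm, was the most abundant in both libraries. It had 2575 reads and an RPKM of 24.5 (23.5 to 25.4) in wild type, and 1838 reads and an RPKM of 19.5 (18.6 to 20.4) in the library labelled Prep1-/-. The 2 intervals did not overlap, and the KO/WT ratio of 0.798 (0.751 to 0.848) was short of the threshold. Bmp7, a ligand best known from kidney and eye development, had the lowest ratio of the 3. Its 428 wild type reads gave an RPKM of 8.2 (7.42 to 8.99) and its 182 reads in the other library gave 3.91 (3.34 to 4.5). The ratio was 0.477 (0.398 to 0.567), a whole interval below 0.7, which was the case for 4.79% of genes with a wild type RPKM above 1. Bmp2, a close relative of Bmp4 that acts in heart and bone development, was the least abundant of the 10 genes. It had 123 and 69 reads, for an RPKM of 1.23 (1.02 to 1.46) and 0.778 (0.597 to 0.97). Its ratio of 0.631 (0.46 to 0.849) was past the threshold, but the interval reached above it, and its wild type level lay just over the filter.

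Added up per length, the 3 ligands went from 33.9 to 24.2 RPKM, a ratio of 0.714. Bmp4 made up 72.2% of that sum in wild type and 80.6% in the library labelled Prep1-/-, and Bmp7 made up 24.2% and 16.2%. The level of Bmp4 was 2.98 times that of Bmp7 in wild type and 4.99 times in the other library. Over all 14 Bmp ligands examined the sum went from 55.1 to 41.7 RPKM, a ratio of 0.757, and Bmp4 made up 44.4% and 46.8% of it.

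Bmpr1a encodes a type I receptor for Bmp2 and Bmp4 that embryos need for gastrulation. It had 2916 and 2360 reads, and its RPKM was 18.6 (17.9 to 19.3) in wild type and 16.9 (16.2 to 17.5) in the library labelled Prep1-/-. At the deposited scaling the ratio of 0.905 (0.857 to 0.956) was below 1 beyond counting error. It was close to the median ratio of all expressed genes, 0.955, since 39.8% of these genes had a lower ratio. Scaled by the median ratio or the upper quartile it was 0.947 or 0.952, and whether its interval then stays below 1 was not computed.

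Id1 and Id3 were the most abundant of the 10 genes in both libraries. Id1 had 7861 reads in wild type and 2362 in the library labelled Prep1-/-, for an RPKM of 126 (124 to 129) and 42.5 (40.8 to 44.2). That was 2.98-fold lower, with a ratio of 0.336 (0.321 to 0.352). Only 0.303% of the 13218 expressed genes had a lower ratio, and the interval of Id1 lay apart from those of the other 9 genes. Id2, which also acts in mammary and lymphoid development, had 940 and 539 reads and an RPKM of 26.2 (24.5 to 27.9) and 16.8 (15.4 to 18.2). Its ratio of 0.642 (0.576 to 0.714) was the nearest inside the threshold. Id3 was the nearest outside it, with 2566 and 1709 reads, an RPKM of 99.1 (95.2 to 103) and 73.8 (70.3 to 77.3), and a ratio of 0.745 (0.7 to 0.792). The ratio intervals of Id2 and Id3 overlapped, so these libraries do not order the 2 genes. The 3 genes thus had unequal ratios, with Id1 well below both others.

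The order within the family changed as well. The level of Id1 was 1.28 times that of Id3 in wild type and 0.576 times in the library labelled Prep1-/-, and the RPKM intervals of the 2 genes were apart in each library. The sum of the 3 Id genes went from 252 to 133 RPKM, a ratio of 0.529. Id1 held 50.2% of that sum in wild type and 31.9% in the other library, Id3 went from 39.4% to 55.4%, and Id2 from 10.4% to 12.6%. Of the difference of 119 RPKM, Id1 accounted for 70.8%, Id3 for 21.3% and Id2 for 7.9%. The fourth family member, Id4, which acts in neural progenitors, had 76 reads in each library, and its ratio of 1.12 (0.803 to 1.56) spanned 1.

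**Figure D2:**
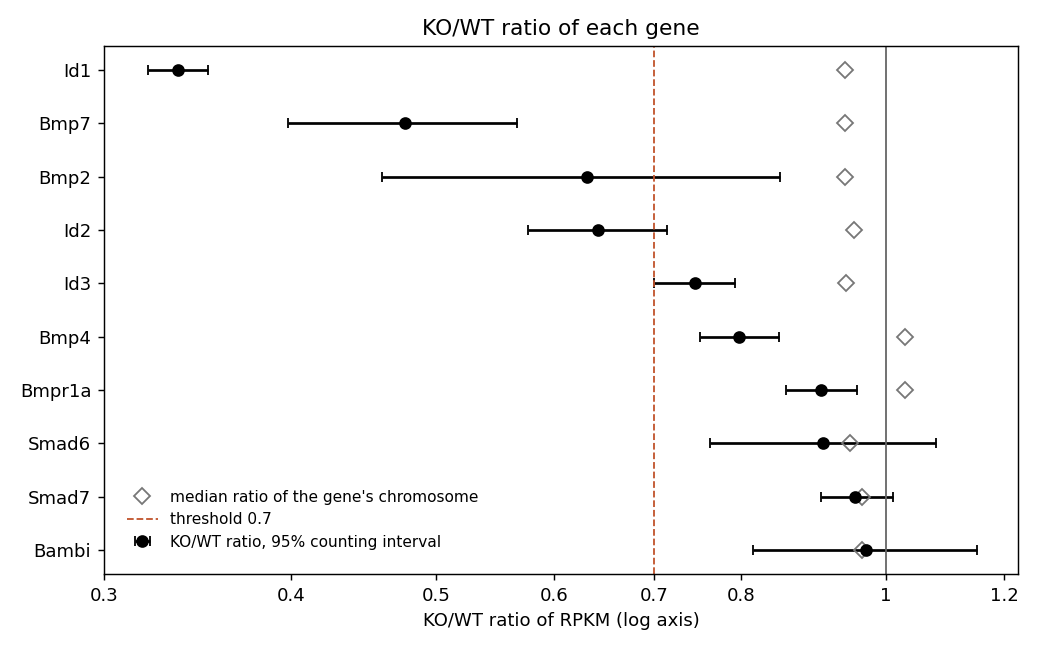
KO/WT ratio of RPKM (log axis) for each of the 10 genes with its 95% counting interval, the 0.7 threshold as a dashed line and the median ratio of the expressed genes on the same chromosome as an open diamond. Id1, Bmp7, Bmp2 and Id2 lie left of the threshold, and the intervals of Smad6, Smad7 and Bambi cross 1.

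The inhibitors differed little between the libraries. Smad7, which blocks activated type I receptors of both the Bmp and the Tgf-beta branch, had 3005 and 2565 reads and an RPKM of 21.9 (21.1 to 22.6) and 20.9 (20.1 to 21.7). Its ratio was 0.954 (0.905 to 1.01), so a ratio below 0.905 was outside the counting interval. Smad6, which acts mainly on Bmp receptors and competes with Smad4 for Smad1, had 302 and 245 reads and an RPKM of 3.46 (3.07 to 3.86) and 3.14 (2.75 to 3.55). Its ratio of 0.908 (0.763 to 1.08) allows a wider range. Bambi, a pseudoreceptor without a kinase, had 286 and 248 reads, an RPKM of 1.81 (1.6 to 2.03) and 1.76 (1.54 to 1.98), and a ratio of 0.97 (0.815 to 1.15). The intervals of the 3 inhibitors excluded the ratios of Id1, Id2, Bmp7 and Bmp2, and the counting intervals of Smad6 and Bambi overlapped that of Bmp2. Among genes known to respond to Bmp, the ratio intervals of Id1 and Id2 thus lay apart from those of all 3 inhibitors, whereas that of Id3 overlapped the interval of Smad6.

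The order of levels per length in wild type was Id1, Id3, Id2, Bmp4, Smad7, Bmpr1a, Bmp7, Smad6, Bambi and Bmp2, and only Id2 and Bmp4 were neighbours with overlapping intervals. In the library labelled Prep1-/- Id3 came first and Id1 second, followed by Smad7 with an interval that overlapped that of Bmp4. Id2 moved behind Bmpr1a with overlapping intervals, and Bmp7 and Smad6 overlapped too. Bambi and Bmp2 were last in both.

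**Figure D3:**
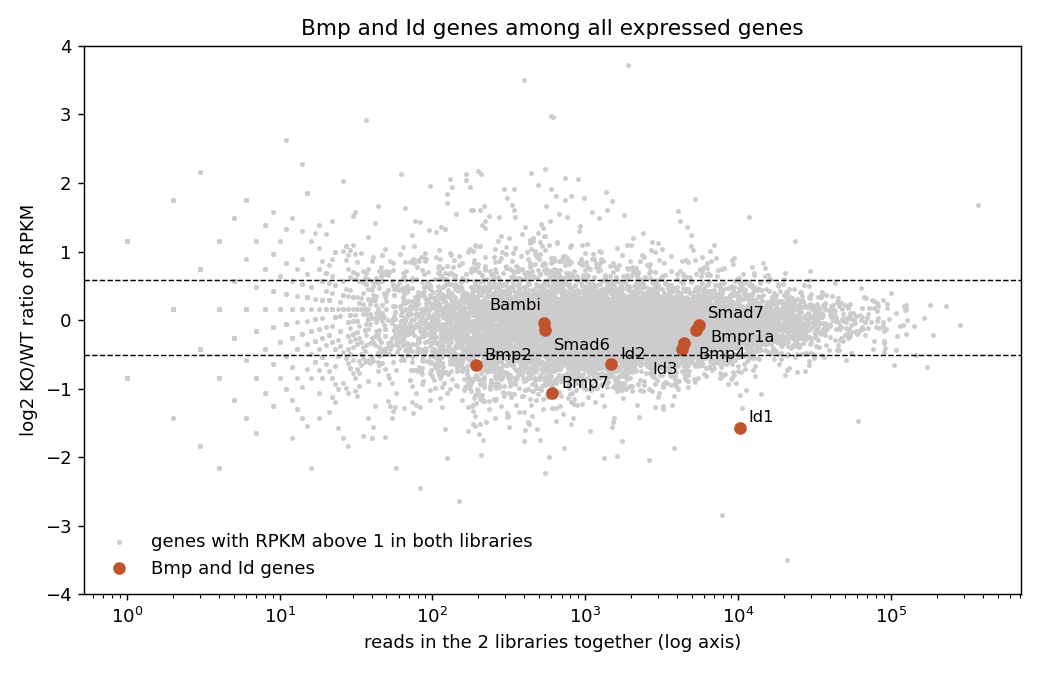
Log2 KO/WT ratio of RPKM against the reads of the 2 libraries together (log axis) for the 13218 expressed genes (grey) and for the 10 Bmp and Id genes (orange), with dashed lines at ratios of 0.7 and 1.5. Id1 lies at -1.57 with 10223 reads, where the grey points are narrowly spread, and Bmp2 at -0.66 with 192 reads, where they are wide.

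Ratios differed between chromosomes as a whole, so the members were also set against their neighbours. Bmp2, Bmp7 and Id1 lie on chromosome 2, where the expressed genes had a median ratio of 0.939, and relative to that median their ratios were 0.672, 0.508 and 0.358. Id2 on chromosome 12 and Id3 on chromosome 4 had 0.674 and 0.793 relative to theirs. Bmp4 and Bmpr1a lie on chromosome 14, with a median ratio of 1.03, and had 0.775 and 0.879 relative to it. Smad6 on chromosome 9 and Smad7 and Bambi on chromosome 18 had 0.959, 0.99 and 1.01. The same 4 genes were below 0.7 on this scale.

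Another 60 genes of the pathway, sorted into 8 roles, were examined with the same thresholds. Of these, 36 had a wild type RPKM above 1 and could be past the threshold for lower, and 9 were, beside 13.8% of all genes with that level. For higher, 34 could be past the threshold and 0 were, beside 7.2% of all genes, although 2, Bmp6 and Chrd, were past the latter when the libraries were scaled in another way. Among the 46 genes with 20 or more reads in the libraries together, 26 had an interval wholly below 1, against 36% of all such genes, 4 had one wholly above 1, against 20.6%, and 16 spanned 1. The other 14 genes had fewer than 20 reads, and nothing is said of them. The median log2 ratio of the 60 genes was -0.19, and -0.24 over the 46.

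Of the 8 other genes that respond to Bmp, 6 had a wild type RPKM above 1, and 4 of these were past the threshold for lower, beside the 13.8% of all genes. Msx1 and Msx2, homeobox genes of limb and craniofacial development, had 94 and 9 reads and 389 and 141 reads, for ratios of 0.118 (0.0475 to 0.212) and 0.407 (0.332 to 0.493). Hand1, a helix-loop-helix factor of trophoblast and heart, had 828 and 240 reads and a ratio of 0.325 (0.28 to 0.375). Dlx3, a homeobox gene of placenta and skin, had 405 and 166 reads and a ratio of 0.46 (0.38 to 0.55). The most abundant gene of this group did not follow them. Dusp9, a phosphatase of Erk that Bmp induces in ES cells, had 11759 and 10320 reads and a ratio of 0.981 (0.956 to 1.01). So Id1, Id2, Msx1, Msx2, Hand1 and Dlx3 were past the threshold, and Dusp9, Id4, Smad6, Smad7 and Bambi had intervals that spanned 1. Atoh8 spanned 1 too, with only 15 and 19 reads and a ratio of 1.4 (0.682 to 2.99). Id3, at 0.745 (0.7 to 0.792), was in neither group.

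Of the 4 signal transducers, 3 had a wild type RPKM above 1, and 1 of these was past the threshold for lower, beside 13.8% of all genes. Smad1 had 2001 and 1163 reads, an RPKM of 10.8 (10.3 to 11.3) and 7.02 (6.61 to 7.42), and a ratio of 0.65 (0.604 to 0.699). It lies on chromosome 8, where the median ratio of expressed genes was 0.779, the lowest among the autosomes and chromosome X, and relative to that median its ratio was 0.835, no longer past the threshold. Smad4, the shared partner of all these Smads and the gene with the most reads in its role, had a ratio of 0.804 (0.763 to 0.846), and Smad5, which shares the role of Smad1, had 0.936 (0.884 to 0.992).

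Among the 10 other receptors and co-receptors, 8 had a wild type RPKM above 1. Only Hfe2 (hemojuvelin, a co-receptor of iron metabolism) was past the threshold for lower, beside 13.8% of all genes with that level. It had 78 and 39 reads and a ratio of 0.566 (0.371 to 0.831). Eng (endoglin), with the most reads of the group, had 0.78 (0.732 to 0.831), and Bmpr2, the main type II receptor, had 0.95 (0.861 to 1.05). All 10 ratios were below 1, beside 58.8% of the expressed genes, a set that holds only 7 of these 10. The interval lay wholly below 1 for 6 of the 10, against 36% of genes with 20 or more reads, and spanned it for 4.

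Of the 11 other ligands, only 3 had an RPKM above 1 and could be past a threshold. None was, beside 13.8% of all genes for lower and 7.2% for higher. Bmp8b, which acts in germ cell specification, had 1217 and 835 reads and a ratio of 0.767 (0.702 to 0.838). Bmp8a and Bmp8b are near-identical copies, and their reads could have been shared between them in counting. Bmp6 was the ligand nearest to the threshold for higher, with 131 and 175 reads, an RPKM of 1.68 (1.4 to 1.98) and 2.51 (2.14 to 2.89), and a ratio of 1.49 (1.18 to 1.89). Its interval lay wholly above 1, unlike those of Bmp2, Bmp4 and Bmp7.

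Of the 14 secreted antagonists and modulators, 6 had a wild type RPKM above 1. Fst (follistatin, which binds activin and some Bmps) and Nbl1 (a member of the Dan family) were past the threshold for lower, beside 13.8% of all genes. Their ratios were 0.625 (0.462 to 0.83) and 0.676 (0.583 to 0.78). Nbl1 was not past the threshold when the median ratio or the upper quartile set the scale or when each chromosome was centred. Chrd (chordin, which traps Bmps) had 101 and 132 reads and a ratio of 1.46 (1.12 to 1.91), and Bmp1, the protease that cleaves chordin and sets Bmps free, had 4369 and 2507 reads and a ratio of 0.642 (0.611 to 0.674). Twsg1, with the most reads in the group, had 0.904 (0.841 to 0.97). Grem1 also had an interval above 1, with only 6 and 15 reads. No gene of the 7 intracellular regulators and the 3 E proteins that Id proteins bind was past a threshold. With 6 and 3 of them above an RPKM of 1, this stands beside 13.8% of all genes for lower and 7.2% for higher. The corepressor Ski had 0.891 (0.872 to 0.91), and the E proteins Tcfe2a and Tcf4 had 0.833 (0.814 to 0.853) and 1.24 (1.14 to 1.34).

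**Figure D4:**
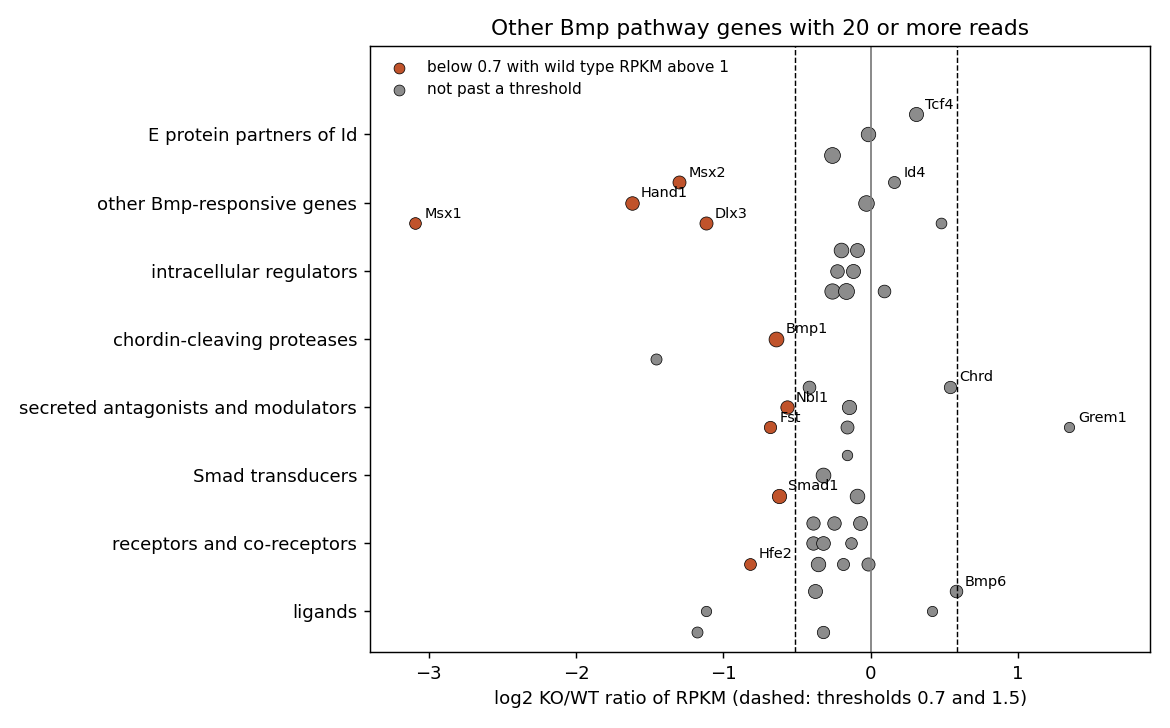
Log2 KO/WT ratio of RPKM for the 46 other Bmp pathway genes with 20 or more reads, in rows by role, with dot size growing with the reads and orange for genes past the threshold for lower. Grey points outside the dashed lines had an RPKM of 1 or less in both libraries, and the 4 points furthest left are Msx1, Hand1, Tll1 and Msx2.

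Markers of ES cells and of other cell types were also compared between the libraries. The summed level of 7 ES cell markers (Pou5f1, Nanog, Sox2 and others) was 1526 RPKM in wild type and 1723 in the library labelled Prep1-/-, with none past a threshold. Their intervals lay wholly above 1 for 6 of the 7, against 20.6% of genes with 20 or more reads. Zfp42 went the other way, with a ratio of 0.801 (0.684 to 0.934). All 7 had an RPKM above 1 in both libraries, so both carried the markers of their labelled cell type. The summed level of 6 primitive endoderm markers went from 10.4 to 5.86 RPKM, that of 4 mesoderm markers from 24.9 to 6.95, and that of 3 trophectoderm markers from 7.38 to 3.02. Of those with a wild type RPKM above 1, 3 of 4, 3 of 3 and 2 of 2 were past the threshold for lower, beside the 13.8% of all genes with that level. T, the defining mesoderm gene, had a ratio of 0.249 (0.215 to 0.285), Cdx2 of trophectoderm 0.221 (0.147 to 0.311) and Gata4 of primitive endoderm 0.339 (0.3 to 0.382), and none was at 0. The lists were not uniform, since Sox7 of primitive endoderm had a ratio of 1.39 (1.09 to 1.79) and Elf5 of trophectoderm, with 3 and 7 reads, had 2.24 (0.596 to 15.6). Msx1, Msx2, Hand1 and Dlx3 are genes of such lineages too. The 4 fibroblast markers summed to 23.9 and 29.4 RPKM, and all 4 ratios were above 1, with 1 interval wholly above 1 and 3 that spanned it. The part of cells of these kinds in the lower Bmp and Id transcripts was not tested.

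The ChIP-seq peaks answer where Prep1 bound around the 10 genes in wild type ES cells. Bmp7 and Id2 had a peak in the gene or up to 20 kb before its start, which makes 2 of 10, beside 18.2% of the 21446 genes with a position in the annotation. Id2 alone had one within 500 bp before and 100 bp after its start, against 7.6% of genes. These shares are close to those of all genes, so the peaks do not set the 10 genes apart. Within 50 kb, Id3 and Smad7 joined them, for 4 of 10 against 36.5%. No peak lay within 50 kb of Bmp2, Bmp4, Bmpr1a, Id1, Smad6 or Bambi, so Id1, with the lowest ratio of the 10, had no peak in that range.

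The strongest peak was that of Id2. It spanned chr12:25780456-25782218, a stretch of 1763 bp over the start of the gene, with a 133-fold enrichment over input. This was above 92.8% of the 3902 peaks, whose median enrichment was 21-fold and whose highest was 336-fold. Its centre lay 380 bp before the start, and the decamer printed above as Id2 start peak (chr12:25781858-25781867) lay 521 bp from that centre, with its first base 910 bases before the start of the gene. A second Id2 peak of 45-fold lay 2928 bp before the start. The third, of 16-fold, lay 46534 bp before the start, with its decamer (chr12:25827479-25827488) 12 bp from the peak centre.

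The other peaks were weaker or farther away. Bmp7, whose gene spans chr2:172693513-172765822 on the minus strand, had a peak of 9-fold within an intron (chr2:172715236-172715576), 50416 bp after the start. Only 3.05% of the peaks had a lower enrichment, and no TGACAG lay in it. A 13-fold peak lay 22075 bp before the start of Id3, and a 25-fold peak lay 49761 bp after the start of Smad7, beyond the end of the gene. Of the 60 further genes, 7 had a peak in the gene or up to 20 kb before its start, against 18.2% of genes. A peak at the start was found for 4 of the 60, against 7.6% of genes. These 4 were Bmp6 (89-fold), Tcfe2a (60-fold), Smad1 (30-fold) and Rgmb (22-fold), and their ratios were 1.49, 0.833, 0.65 and 0.762. Peaks at the start were thus found at genes on both sides of a ratio of 1.

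**Figure D5:**
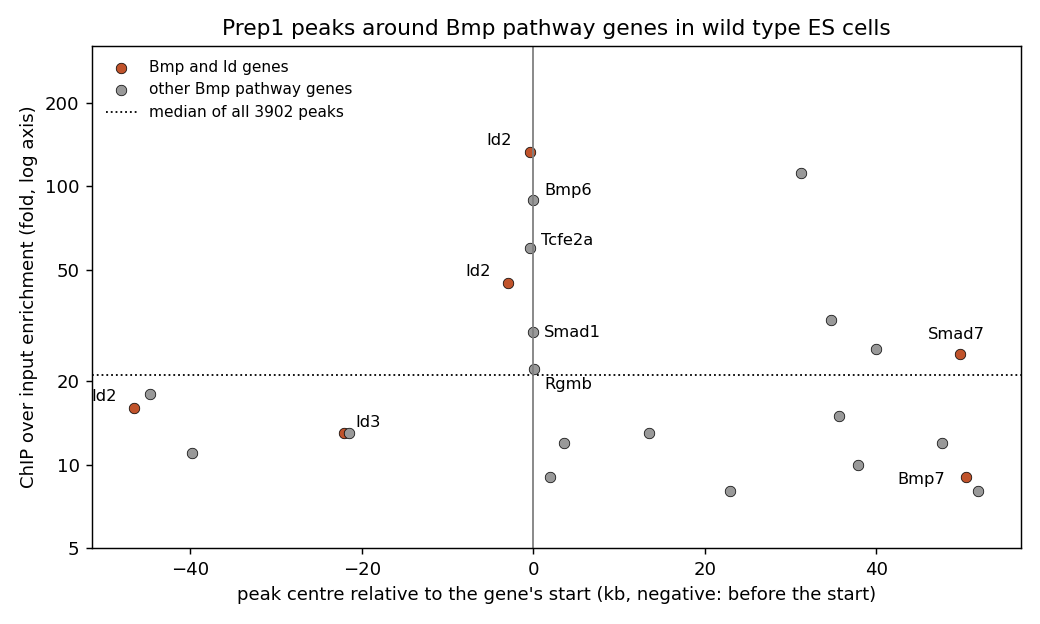
Enrichment of Prep1 ChIP over input (fold, log axis) against the distance of the peak centre from the start of the gene (kb, negative before the start) for peaks within 55 kb of the starts of the Bmp and Id genes (orange) and of the other pathway genes (grey). The 133-fold peak of Id2 at the start is the highest, and the dotted line marks the median of all peaks at 21-fold.

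The 1500 bases before each start were searched for short motifs on both strands. GGCGCC was found before 20.7% of all 21446 genes and before 5 of the 10 genes. These were Id1 with its first base 1099 bases before the start, Id2 at 231, Smad6 at 1002, Smad7 at 103 and 37, and Bambi at 957 and 44. None was found before Bmp2, Bmp4, Bmp7, Bmpr1a or Id3. GTCT is so short that 21441 of the 21446 genes had it, and GGCGCC with a GTCT within 100 bases was found before 14.7% of genes and before Id1, Smad7 and Bambi. So Id1, with the lowest ratio, and Smad7 and Bambi, with ratios whose intervals spanned 1, both had this pairing. The decamer was found before 2.87% of genes and in 24.3% of all peaks, and of the 10 genes only Id2 had it. Its last 6 letters, TGACAG, were found before 62% of genes. The looser form, searched after the data were seen, was found before 8.67% of genes and in 35.3% of peaks, and before Smad1 it lay 102 bases from the start and 6 bp from the centre of the peak. The decamer and its looser form were matched letter by letter. That is stricter than the motif search of the study, which reports its decamer in most of these peaks. A match is a description of the sequence, and a window without one says nothing about binding.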

How the data were processed

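Poly(A) RNA of 1 wild type and 1 Prep1-/- (KO2) ES cell line was sequenced as paired 50 bp reads, and the authors assigned the reads to Ensembl release 63 genes with RSEM and analysed them with DESeq. Per the labels and values, the deposited files give 22718 genes with a read count as a whole number, not normalized, and with the authors' RPKM. RPKM was proportional to the count plus 1 in both libraries, and the ratio of RPKM was 1.12 times the ratio of these counts. It was listed as Inf for 85 genes, which were left out. The authors mapped ChIP-seq reads to mm9 with BWA, called peaks with MACS against input, and deposited a peak list whose score is the fold enrichment rounded to a whole number. Versions of these programs are not given in the sources used here, and ChIP read depth was not analysed here.

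RPKM ratios were taken without a pseudocount. The design was written for these ratios, and with 1 library per genotype no count model was run. Intervals are exact Clopper-Pearson at 95%. Calls and intervals were tested on simulated data with independent reads and with no true ratio near a threshold. That test checks the calculation, and it cannot check the error of these libraries or calls near a threshold. Medians are over finite values. Gene positions and sequences are from mm9 (NCBIM37) with GENCODE M1, in which 21446 of the genes were found by identifier, and peak starts were read as 1-based. A start is the outer end of the gene. The genes named are the 10 members, Pknox1, pathway genes past a threshold with 20 or more reads, and the gene with the most reads of each role. Outside that rule, Id4, Atoh8, Smad5, Bmpr2, Bmp6, Chrd, Grem1, Tcf4, Tll1, Rgmb and the marker genes were named after their values were seen. The members and gene lists were chosen with earlier results of these data known. One trophectoderm marker of the list, Tfap2c, was not found by its symbol. The alternatives were 3 other scalings, centring by chromosome, pseudocounts, filters, thresholds and peak windows. Analyses used scipy 1.17.1, pandas 2.3.3 and numpy 2.4.6 under Python 3.11.15, and plots used matplotlib 3.10.9.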

Additional observations from a re-analysis of the deposited data

How the results depend on the processing

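No paired analysis was possible because each genotype had 1 library without a replicate number, and for the same reason no library could be left out. The 10 KO/WT ratios were recomputed under 6 alternatives, and 57 of the 60 values stayed inside the counting interval of the ratio reported. The 3 outside were Id1 at 0.354 (upper quartile) and 0.358 (median of each chromosome set to 0) and Id3 at 0.793 (the latter), and none turned from below to above 1 for a gene past a threshold. Id1, Id2 and Bmp7 were past the threshold under all alternatives but that of ratios below 0.5, which left 2 of the 10 genes, Id1 and Bmp7, against 3.29% of genes. Bmp2 was lost with a pseudocount of 1 and with an RPKM above 5. No member was past the threshold for higher under any alternative. The median log2 ratio of the 10 genes lay between -0.38 and -0.30. Counts of intervals wholly below or above 1 were not recomputed under the alternatives.

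Of the 60 pathway genes, 15 were past the threshold for lower and 6 past that for higher without an RPKM filter, beside 19.3% and 12.6% of all genes, and 5 of these 6 had fewer than 20 reads. With thresholds of 0.5 and 2, 4 genes were past that for lower, against 3.29% of all genes with a wild type RPKM above 1. Compared with a ratio below 0.7 and an RPKM above 1, Hfe2, Fst and Nbl1 were not past the threshold with a pseudocount of 1, Nbl1 was not with a threshold of 1/1.5, and Hfe2, Fst and Msx1 did not reach an RPKM of 5. With each of the 3 other scalings and with centring by chromosome, 2 were past the threshold for higher. The share of all genes ranged from 7.84% to 8.48% under these settings. Members with a peak numbered 1 with the window at the start, against 7.6% of genes. They numbered 1 with peaks above the median score, against 10.5%, and 4 within 50 kb, against 36.5%. The looser motif, added after seeing the data, left the count of members with a decamer in such a peak at 1. Depth limits genes such as Bmp2, with 192 reads together, more than Id1, with 10223.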
